A study of Drosophila melanogaster with 13 samples.

Results

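A group of 87 transcripts stood far higher in dany mutant testes than in control testes. In the testes of 3 other mutants they stood less than a doubling above control, if above it at all. They were chosen by measured values: of 15676 FlyBase transcripts on the array, 14160 were above background on all 3 dany arrays, 419 of these had a mean log2 level at least 5 above control in dany, and 87 of the 419 (20.8%) had sa, aly and topi means each less than 1 above control. A level is the log2 processed signal of a probe after subtraction of the log2 value at the 75th percentile of its array, so 0 marks a signal at that percentile and a difference of 1 is a doubling. "Switched on only in dany" describes a minority of the 87. A total of 35 (40.2%) were below background on all 4 control arrays, 20 were above it on 1 to 3 of them, and 32 (36.8%) were already above it on all 4. The transcripts are therefore described by how they were chosen and by their detection in control. None of the 87 identifiers is paired with a gene in the array files or in the gene table used here, so each is given by its FlyBase transcript identifier, with no gene name, position or function.

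RNA came from testes of young Drosophila melanogaster males, 0 to 2 days after eclosion and raised at 25 °C, and each array took a pool of 80 testes. Control males (4 arrays) were w[1118] on the X and carried Df(2R)BSC802 over a wild-type chromosome. In dany males (3 arrays), also w[1118], the same deficiency lay over the allele dany[ex11]. Df(2R)BSC802 deletes a stretch of chromosome, and other genes in that stretch were in single copy in both genotypes. The sa males (2 arrays) had a wild-type X and carried the allele sa[1], on a chromosome marked with th and red, over sa[2], on one marked with ru, h and ca. Males of the aly group (2 arrays) were w* on the X and carried aly[2] over aly[5], with red and e on both chromosomes. The topi males (2 arrays) had a wild-type X and the marker bw and carried topi[Z3-0707] over topi[Z3-2139]. These 3 mutants thus came from other backgrounds than the control they were set against. In bulk testes, fewer cells of a type and less RNA per cell cannot be told apart. No array target was matched to dany, sa, aly or topi, so the mutated genes were not checked.

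Primary spermatocytes of Drosophila switch on a large testis-specific programme before meiosis. It depends on the testis meiotic arrest complex tMAC, to which aly and topi contribute, and on testis-specific TAFs, of which sa is a member. TAFs are subunits of the general transcription factor TFIID, and loss of any of these genes arrests germ cells as mature spermatocytes. The dany gene encodes a chromatin-associated protein of spermatocyte nuclei.

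The arrays differed in how much they detected. Between 60.9% and 69.1% of probes were above background on the control arrays and between 75.3% and 76.5% on the dany arrays, with 68.7% to 72.6% on the sa arrays, 64.5% to 66.5% on the aly arrays and 62.4% to 64.5% on the topi arrays. The dany arrays thus detected the most. The 75th percentile of log2 signal, which sets the zero of the levels, was 9.79 to 10.68 in control and 11.1 to 11.5 in dany. Pairs of replicate arrays gave a Pearson r over the targets, which are not independent, of at least 0.970 in control and 0.962 in dany, and of 0.968 for sa, 0.972 for aly and 0.916 for topi. The part that these differences in brightness have in the levels of the 87 was not tested. Among genes of other cell types, 3 of 36 listed digestive enzymes of the gut had a target matched here. Both that could be tested were called higher in dany: the trypsin gene epsilonTry by 5.42 (limma adjusted p = 6.92e-05) and the serine protease gene Jon65Aiii by 4.03 (adjusted p = 8.6e-07). The control level of epsilonTry, below background on every control array, is only a bound. That gene was also above background on 1 sa array and 1 aly array. The remaining gene, alphaTry, was below background on every array. The summed linear level of the 3, in units of the 75th percentile of the array, was 0.628 to 0.787 on the dany arrays and 0.0280 to 0.0492 on the control arrays, and 0.0264 to 0.0676 over the other mutants. The part of gut RNA in the levels of the 87 was not tested. Tested genes of other lists outside the testis were not called changed in dany. These were Cpr49Ag of the cuticle (0.60, limma adjusted p = 0.559), Vm34Ca of the eggshell (-0.03, adjusted p = 0.974) and Ir7b of chemosensation (-0.74, adjusted p = 0.241). Dup99B, of the male accessory gland list, was above background on 1 dany array and was not tested. Of 3 matched genes of spermatocytes and spermatids, f-cup, which is transcribed in spermatids, and soti, which acts in spermatid individualization, were called lower in dany, and the summed level of the 3 was 36.9 to 44.9 in control and 5.26 to 7.27 in dany. It was 6.14 to 7.30 in sa and 11.1 to 14.8 over aly and topi, where f-cup was also called lower, and f-cup made up nearly all of it. The JNK phosphatase gene puc, the matched gene of the somatic list, was above background on all control and dany arrays and was not called changed in dany (-1.16, adjusted p = 0.186).

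Over the 87 transcripts, the measured log2 difference between dany and control ranged from 5.03 to 9.71 with a median of 5.64, where the median of the 19753 targets tested was -0.04. The 52 transcripts above background on at least 1 control array stood 32.6 to 130 times higher in dany, with a median of 46.2. For 20 of the 52 some control arrays read below background, so their control means and folds rest in part on bounds. For the 35 below background on every control array the control level is only a bound. These 35 were set against the dimmest level above background on the control arrays, an approximate bound. With the 52 kept at their measured folds, the 87 ranged from at least 9.22-fold to at least 257-fold, with a median of 40.2. Of the 87, 23 reached 64-fold. The median level over the 87 was -5.81, -6.25, -6.07 and -6.04 on the 4 control arrays and 0.04, 0.58 and 0.46 on the 3 dany arrays. The sa arrays gave -6.28 and -6.15, the aly arrays -6.45 and -7.39, and the topi arrays -6.91 and -6.71. In words, the typical member lay near the 75th percentile of the array in dany and close to background elsewhere. These differences chose the transcripts and carry no test. For comparison, 87 of 87 were called higher in dany in the fit over all targets (limma; a call needs an adjusted p below 0.05 together with a 2-fold difference), where 26.4% of targets were called higher, 17.7% lower and 44.1% either way. The balance over all targets, 5213 higher and 3505 lower, was 3719 and 7168 with median scaling, 5652 and 820 with spike-in scaling, and 3243 and 3735 with normexp background correction.

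**Figure D1:**
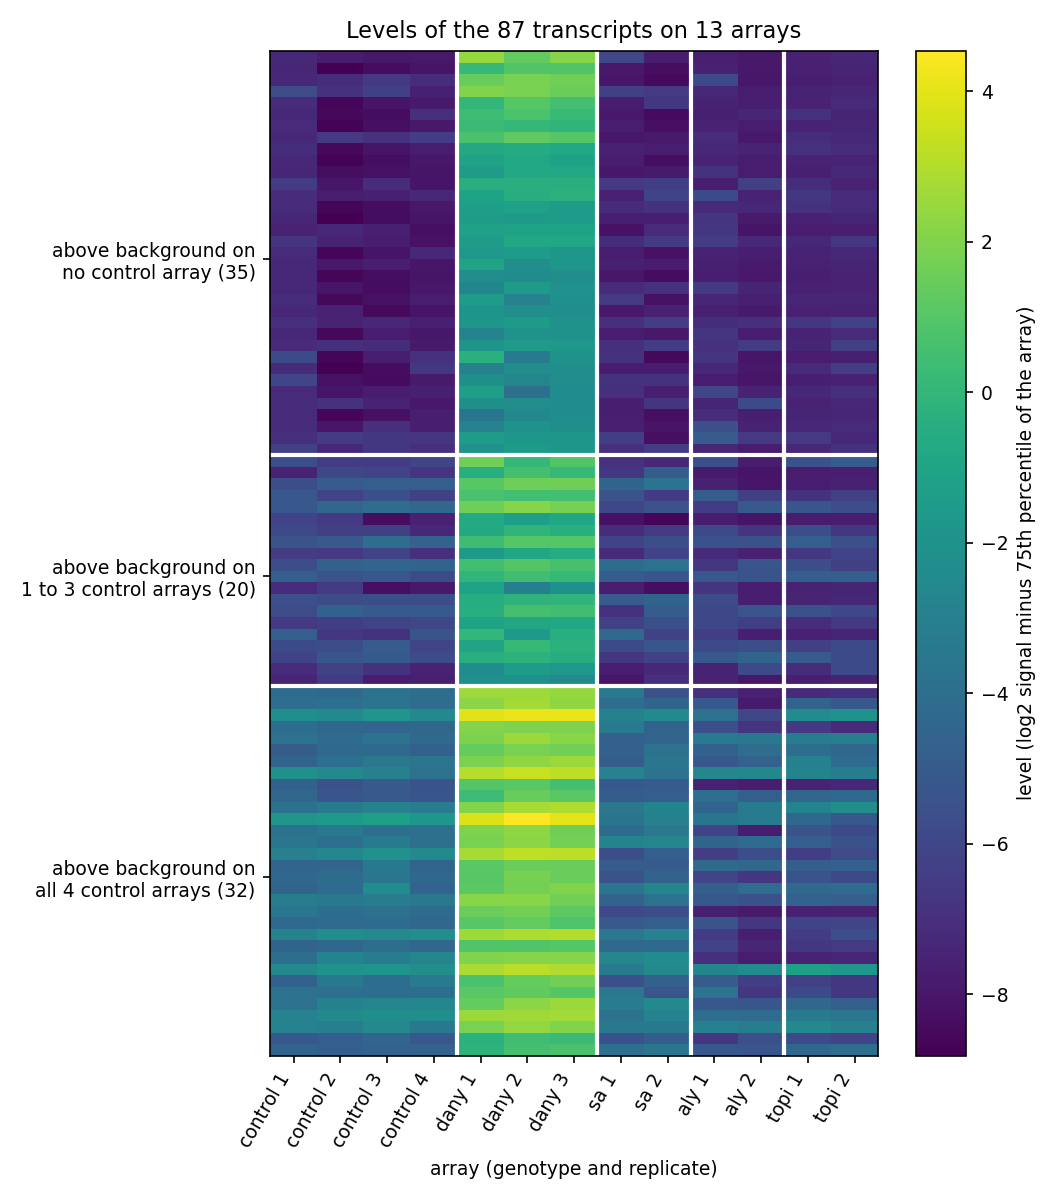
Levels of the 87 transcripts (rows) on the 13 arrays (columns), as log2 levels in units described in the text, where 0 is the 75th percentile, with white lines between genotypes and between the groups above background on no, 1 to 3 or all 4 control arrays. Within every row the 3 dany columns are brighter than all other columns, while the control signal is near background in the upper 35 rows and visible in the lower 32.

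The separation was also seen array by array. The transcripts were chosen by the means of these same values, so the figures here describe the choice and carry no test. In 87 of 87 transcripts the lowest dany array lay above the highest of the 10 other arrays, which 13.7% of all targets also showed. The gap between them ranged from 2.13 to 7.52 on the log2 scale, with a median of 4.73. Control and dany arrays shared 3 slides, and dany minus control within a slide had a median of 5.56 on slide 1, 5.74 on slide 3 and 5.87 on slide 4. The lowest single difference was 3.57, 3.85 and 4.42 on these slides.

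The 35 transcripts below background on every control array had a median of the mean levels of -7.74 in control and -1.63 in dany, and the measured difference between the 2 genotypes ranged from 5.04 to 9.71 with a median of 6.14. Because a control level below background is only a bound, a cautious fold was computed against the dimmest level still above background on the control array concerned, or the transcript's own level where that was higher. That dimmest level is taken over all spots of the array, and a probe can read above it while below background. On control 3 it was -6.30, where FBtr0080591 read -6.26 and was below background. The cautious fold is therefore an approximate bound. By this measure dany was at least 9.22 to at least 257 times above control, with a median of 21.2. That is below the medians of 44.9 and 47.4 for the transcripts detected on 1 to 3 and on all 4 control arrays. Those medians are of measured folds, and the 44.9 includes control readings below background, so the measures are unlike. By measured differences the 35 have the highest median. The order of the groups thus depends on how control signals below background are treated. For 21 of the 35 the cautious log2 difference was under 5, so their place in the list rests on control signals below background. A total of 32 of the 35 were also below background on all sa, aly and topi arrays.

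The 6 transcripts with the largest measured differences belong to these 35, and their rank is not established, since the control levels are bounds. FBtr0082738 had levels of -7.36, -7.77, -7.94 and -7.89 in control and 2.44, 1.36 and 2.11 in dany. Its 2 sa arrays gave -5.98 and -7.74, its aly arrays -7.69 and -7.93, and its topi arrays -7.60 and -7.38, all below background. The dany mean was 1.97 ± 0.555 (SD, n = 3) against -7.74 ± 0.264 (SD, n = 4) in control, a measured log2 difference of 9.71, and at least 257-fold by the cautious measure. This transcript went from below background in every other genotype to above the 75th percentile of the array in all 3 dany samples.

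FBtr0088757 had levels of -7.38, -8.82, -8.35 and -8.09 in control and 0.14, 0.93 and 0.93 in dany. The other 6 arrays lay between -8.34 and -7.45, so no array outside dany was above background. Its measured log2 difference was 8.83, and the fold at least 104.

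FBtr0076828 had levels of -7.29, -7.07, -6.58 and -7.06 in control and 1.43, 1.83 and 1.65 in dany. The first aly array read -5.85 and was above background, while the second read -7.95 and was not. The sa arrays gave -7.99 and -8.47 and the topi arrays -7.68 and -7.58. It stood at least 204-fold higher in dany than in control.

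FBtr0080591 had levels of -5.73, -6.91, -6.26 and -7.65 in control and 2.01, 1.86 and 1.53 in dany. The sa arrays, at -6.28 and -6.57, lay within the range of the control arrays, and aly and topi lay from -7.81 to -7.32. The difference was at least 228-fold.

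FBtr0290131 had levels of -7.12, -8.59, -8.06 and -7.86 in control and 0.01, 1.01 and 0.55 in dany, a difference of at least 94.2-fold. FBtr0085503 had levels of -7.34, -8.55, -8.37 and -6.97 in control and 0.38, 0.74 and 0.25 in dany, a difference of at least 90.4-fold. Neither was above background in sa, aly or topi. In all 6 transcripts every dany value lay above every value of the other genotypes, as it did across the 87.

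**Figure D2:**
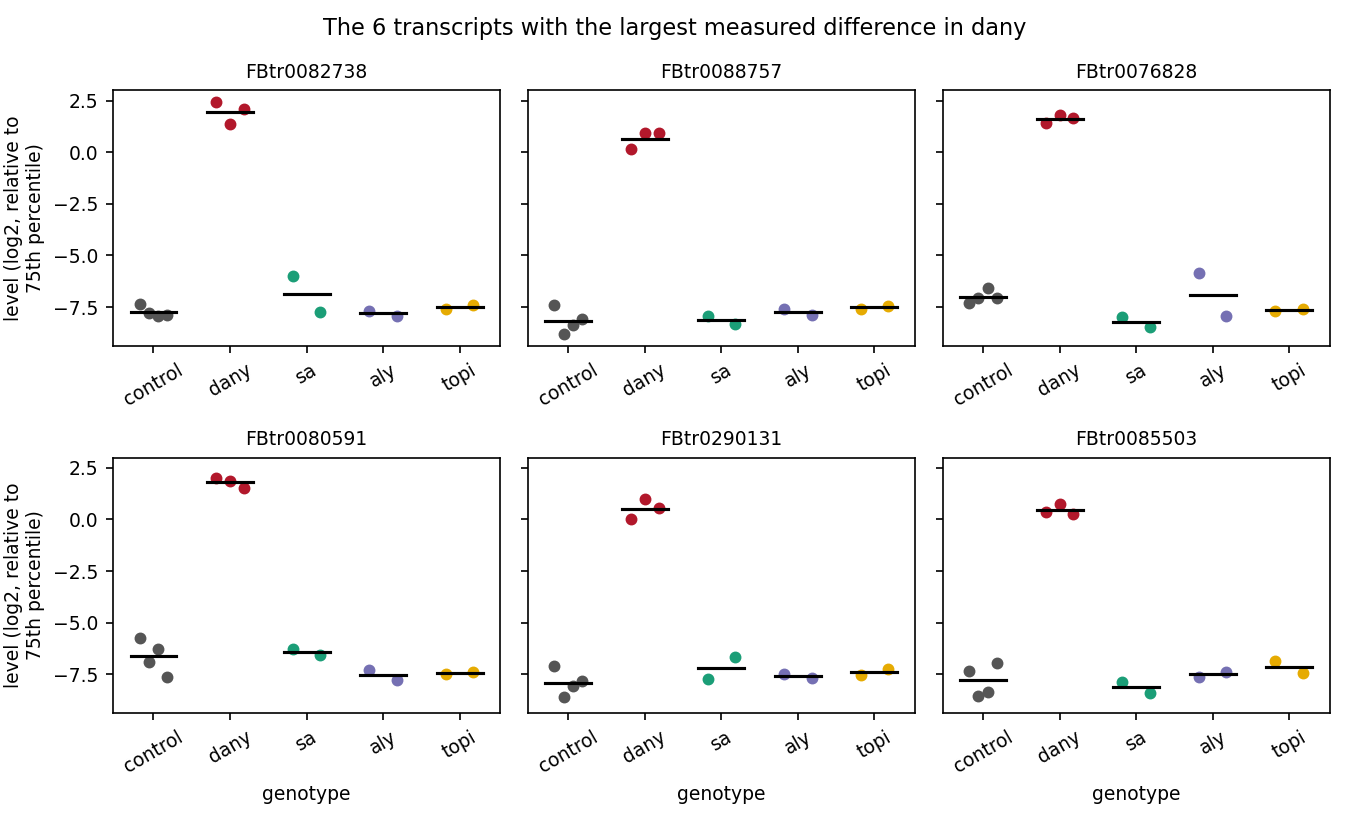
Level on each array (points, log2 level, where 0 is the 75th percentile) and group mean (bars) of the 6 transcripts with the largest measured difference between dany and control. All dany points lie above 0, and all points of the other 4 genotypes lie below -5.

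The 20 transcripts above background on 1 to 3 control arrays formed a middle group. Their median level was -5.84 in control and -0.31 in dany, and dany minus control ranged from 5.10 to 7.02 with a median of 5.49. Their medians of -5.91 in sa, -6.50 in aly and -6.41 in topi were at or below that in control. Control readings below background entered these values as measured.

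The 32 transcripts above background on all 4 control arrays were low but present in control and had the highest median level of the groups in dany. The limit of 5 above control favours this, since it asks more signal in dany of a transcript with more in control. The groups overlapped: dany means of the 32 went down to 0.16, and those of the 35 undetected in control up to 1.97. Their median level was -3.87 in control and 2.00 in dany. The sa median was -4.22, the aly median -5.22 and the topi median -4.81. The difference between dany and control ranged from 5.03 to 6.60 (32.6-fold to 96.9-fold), with a median of 5.57. Of the 32, 30 were above background on both sa arrays and 14 on all 13 arrays, whereas 8 were above it on no aly and no topi array. Of these 8, 7 were above background on both sa arrays.

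The highest signals in dany came from this group. FBtr0079241 had levels of -1.85, -1.60, -1.21 and -1.80 in control and 3.84, 4.54 and 3.99 in dany, a 53.4-fold difference. Its levels were -3.60 and -2.98 in sa, -3.65 and -3.25 in aly, and -4.30 and -5.14 in topi, so each of the other mutants lay below control while dany lay above it. FBtr0077090 had levels of -2.17, -2.44, -1.84 and -2.47 in control and 3.94, 4.17 and 4.13 in dany, a 79.4-fold difference. Here sa (-2.96 and -2.45) and topi (-2.32 and -1.95) lay near control, and aly (-3.78 and -5.96) lay below it. FBtr0072012 had levels of -2.13, -2.40, -2.997 and -3.86 in control and 3.03, 3.41 and 3.19 in dany, a 66.8-fold difference, and its 6 arrays of the other mutants, from -3.72 to -2.62, all lay inside the range of the control arrays.

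**Figure D3:**
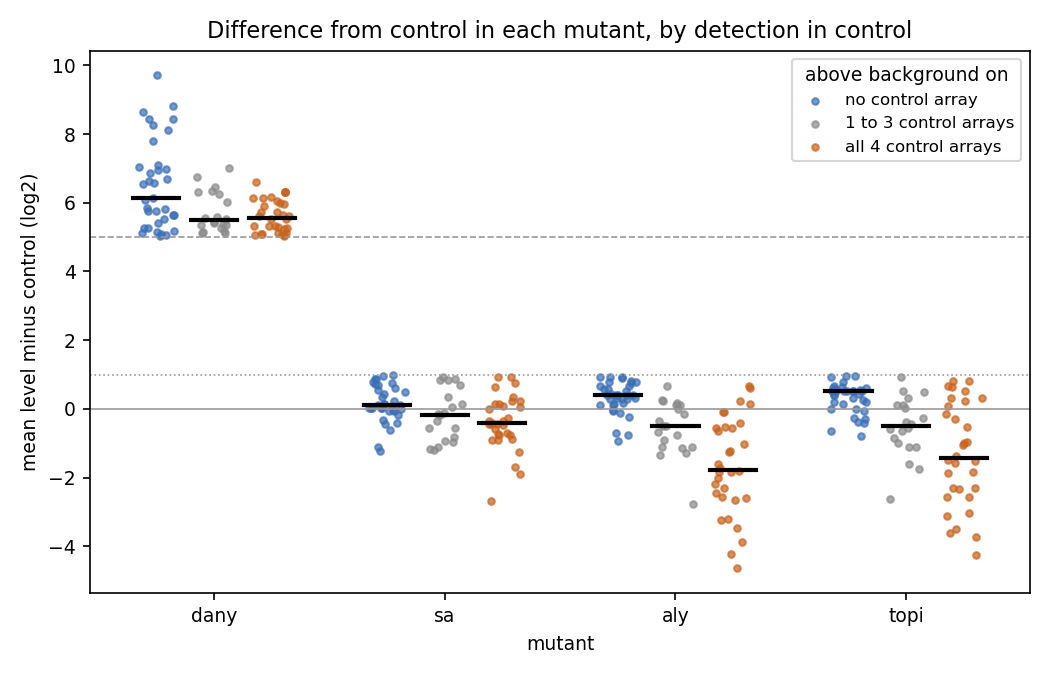
Mean level in each mutant minus control (log2; one point per transcript) with the median of each group as a bar, split by detection on the control arrays; the dashed line at 5 and the dotted line at 1 are the limits that chose the transcripts. In aly and topi the 32 transcripts detected on all control arrays extend below -4, while the 35 undetected in control stay between -1.23 and 0.99 in sa, aly and topi.

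The dany arrays agreed closely for most of the 87. The SD over the 3 dany arrays had a median of 0.274, against 0.321 for all targets tested, and it exceeded 1 in 2 transcripts. Over the control arrays the median SD was 0.420, against 0.348 for all targets. The rule chose transcripts that were high in dany and low in control. The SDs were not compared at like levels, so nothing is read from these differences. The second dany array was the highest of the 3 for 49 transcripts and the first was the lowest for 50. FBtr0077129 had the largest SD, 1.48, with levels of -0.33, -3.27 and -2.003 in dany and -5.83, -8.61, -7.71 and -6.94 in control. FBtr0080933 followed with 1.30 and levels of -1.29, -3.88 and -2.34 in dany, and FBtr0070189 with 0.980 and levels of -1.07, -3.03 and -2.10. In these 3 the first array was the highest and the second the lowest, the reverse of the usual order among the 87.

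At the other end, FBtr0084048 had levels of -0.45, -0.46 and -0.46 in dany (SD 0.0043) and -6.47, -8.03, -7.12 and -8.04 in control, a difference of at least 47.9-fold. FBtr0083585 had levels of -1.17, -1.10 and -1.11 in dany, and FBtr0076608 had -1.47, -1.56 and -1.49. All 3 were below background in the other genotypes, where their values scattered more than in dany: the SD over the control arrays was 0.763, 0.403 and 0.592. These values are of the brightest probe, and a second probe of FBtr0083585 was above background on 1 dany array only, with dany minus control of 0.71.

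Transcripts lay closely on both sides of the limits. The smallest differences inside the list were 5.03 for FBtr0078433, 5.04 for FBtr0091604 and 5.05 for FBtr0076936. Just outside were FBtr0078064 with 4.9995, FBtr0079187 with 4.95 and FBtr0305981 with 4.94. Close to the limit of 1 in the other mutants, the highest value was 0.99 for FBtr0302717, 0.96 for FBtr0081240 and 0.94 for FBtr0084048. Just over it were FBtr0089500 with 1.01, FBtr0076996 with 1.02 and FBtr0330091 with 1.04. The 3 last transcripts stood 6.70, 6.72 and 5.59 above control in dany, as far as many of the 87. The same limits took 48 transcripts with median scaling, 133 with spike-in scaling and 25 with normexp background correction, of which 44, 76 and 15 were among the 87.

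Most transcripts with so large a difference in dany also stood above control in another mutant. Of the 419, sa was at least 1 above control for 265, aly for 221 and topi for 235, and all 3 were for 147. The 332 that the limit left out were below background on all control arrays in 50.3% of cases and above it on all in 15.1%, against 40.2% and 36.8% of the 87.

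In the mutants other than dany, the 87 had median differences from control of 0.00 for sa, -0.11 for aly and -0.01 for topi, where the medians over all targets tested were 0.41, 0.81 and 0.82. The limit of 1 kept higher values out, so these figures describe the choice. None of the 87 was called higher in sa, aly or topi, where 26.3%, 40.2% and 42.3% of all targets were. Lower calls numbered 7 for sa (8.05%), 24 for aly (27.6%) and 21 for topi (24.1%), where 15.2%, 20.2% and 21.3% of all targets were called lower (41.5%, 60.5% and 63.7% either way). The comparisons share the control arrays. Of the 32 transcripts above background on all control arrays, 3 were called lower in sa. Among the same 32, the tMAC mutants gave 19 lower calls (aly) and 18 (topi). The share of lower calls among all targets above background on every control array was not computed, so these counts have no comparison. A transcript near background in control has little room to fall, and the limit kept higher values out. Whether the 32 depend on tMAC more than other detected transcripts was not tested.

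The difference between sa and the tMAC mutants is not one that the rule used directly. The limit of 1 above control applied to all 3 mutants, however, and the dany and control arrays enter the estimate of the spread. In the fit over all targets, 16 of the 87 (18.4%) were called higher in sa than in the mean of aly and topi, and 17.8% of all targets were, so the share is near that of the background. Called lower were 2 (2.30%), where 20.6% of targets were lower and 38.4% were called either way. The limit on aly and topi removed transcripts that stood well above control there, so nothing is read from the low share. The 16 were above background on at least 1 control array, 11 of them on all 4, which the limit on sa favours, since a transcript below background in control could not stand far above it in sa. Their log2 differences ranged from 1.12 to 4.88 with a median of 2.38. Each of the 18 kept its sign on slide 1, where sa and aly were both present, and on slide 3, where sa and topi were. For 10 of the 16, aly and topi were below background and sa was above it on both arrays, and the cautious folds were at least 1.27 to at least 8.13. With spike-in scaling 10 of the 87 (11.5%) were called higher and 12.4% of all targets, and with normexp background correction 4 (4.60%) and 12.8%.

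The transcripts named for this comparison were taken after their values were seen, from its ends. FBtr0082576 had levels of -2.72 and -2.35 in sa, -7.01 and -7.78 in aly and -7.48 and -7.38 in topi, with -4.00, -2.78, -3.15 and -2.74 in control and 2.00, 2.12 and 2.11 in dany. It was thus slightly above the control arrays in sa, below background in aly and topi, and above all of them in dany. The difference between sa and the mean of aly and topi was 4.88 (SE 0.353, adjusted p = 4.47e-06), at least 8.13-fold. FBtr0083756 was likewise below background in aly and topi, with -3.53 and -2.91 in sa, -6.47 and -7.71 in aly, and -6.45 and -5.69 in topi, a difference of 3.36 (SE 0.372, adjusted p = 6.8e-05) and at least 5.05-fold. Its control levels were -2.84, -2.22, -2.55 and -2.20 and its dany levels 2.62, 2.91 and 2.99. With normexp background correction these differences were 1.93 and 1.30, and both calls held.

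FBtr0087873 had levels of -4.51 and -3.71 in sa and from -8.01 to -7.57 in aly and topi, a difference of 3.62 (SE 0.317, adjusted p = 1.58e-05) that was at least 2.72-fold. Its call was lost with normexp background correction. The 2 transcripts that were lower in sa differed by less: FBtr0076440 by -1.29 (SE 0.234, adjusted p = 0.00131), with -4.67 and -4.44 in sa and -3.39 to -3.13 in aly and topi, and FBtr0083822 by -1.33 (SE 0.350, adjusted p = 0.0103). Both of these calls were lost with spike-in scaling and with normexp, and that of FBtr0083822 also with the deposited table and without sa 1.

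**Figure D4:**
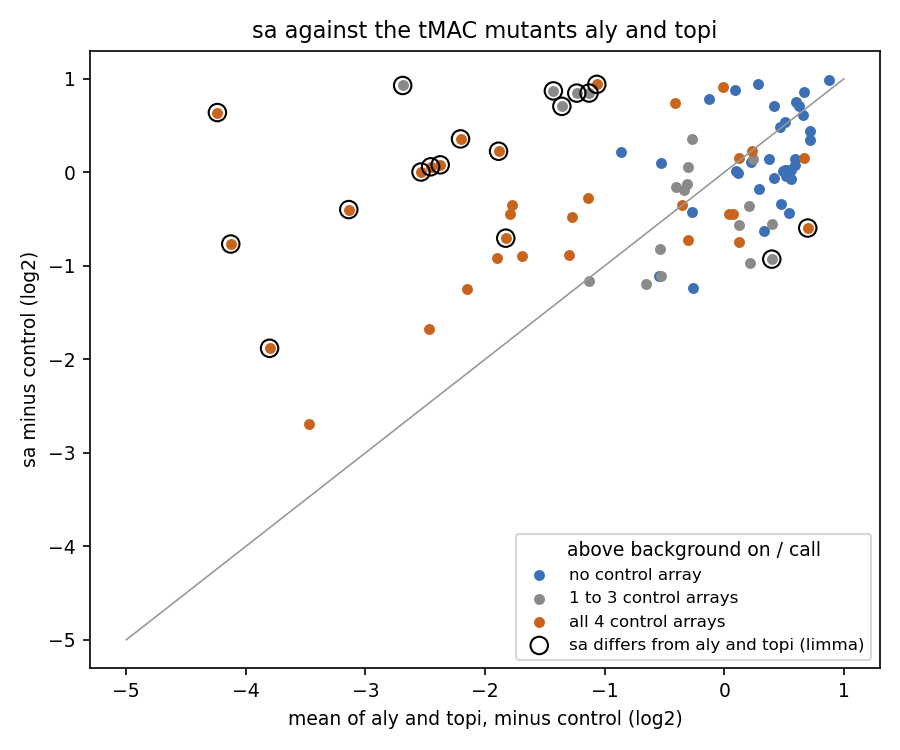
Mean level of each of the 87 transcripts in sa minus control (vertical, log2) against the mean of aly and topi minus control (horizontal, log2), coloured by detection on the control arrays; the line marks equal values and rings mark the 18 called different. The 16 ringed transcripts above the line were detected on at least 1 control array, and 2 lie below it.

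Few of the 87 were called different between the tMAC mutants. Called were 4 (4.60%), 1 higher in aly and 3 lower, where 14.9% of all targets were called, 7.49% higher and 7.37% lower. All 4 were above background on every control array. The limit on aly and topi removed transcripts that stood well above control in either. A transcript below background in both mutants could hardly be called different between them. Nothing is therefore read from the low share. FBtr0077090 had an aly minus topi difference of -2.74 (SE 0.553, adjusted p = 0.00667), and FBtr0079241 was higher in aly by 1.27 (SE 0.377, adjusted p = 0.0436). FBtr0073172 (-1.05, adjusted p = 0.0428) and FBtr0078433 (-1.08, adjusted p = 0.0377) were lower. The call of FBtr0077090 held whichever array was left out, with differences from -3.83 to -1.65, the smaller without the second aly array. The higher call was lost without control 1, 2 or 4, dany 1 or 3, aly 1 or topi 2, and a single lower call was left without control 2, 3 or 4.

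Another probe was present for 20 of the 87 transcripts. Of these other probes, 15 were above background on all 3 dany arrays, with dany minus control from 2.86 to 7.46 and a median of 5.81, and 9 of the 15 reached 5. By themselves, 7 of the 15 met all limits. A further 2 were above background on 1 or 2 dany arrays and 3 on no array. The 2 differed by 0.71 (FBtr0083585) and 1.48 (FBtr0085514), where the brightest probes differed by 6.56 and 5.11. The 3 differed by -0.91 (FBtr0077557), -0.92 (FBtr0085739) and -1.79 (FBtr0333248), where the brightest probes differed by 5.64, 6.60 and 6.13. Probes above background on all 3 dany arrays could also disagree: in FBtr0087047 the brightest probe differed by 8.12 and the other by 2.94. In FBtr0084691 the other probe differed by 7.46 in dany but also by 2.37 in sa, over the limit, where its brightest probe differed by 5.52 in dany. Spots of the same probe agreed more closely: for 49 transcripts with 2 spots the median difference between spots was 0.060, 0.081 and 0.077 on the 3 dany arrays.

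**Figure D5:**
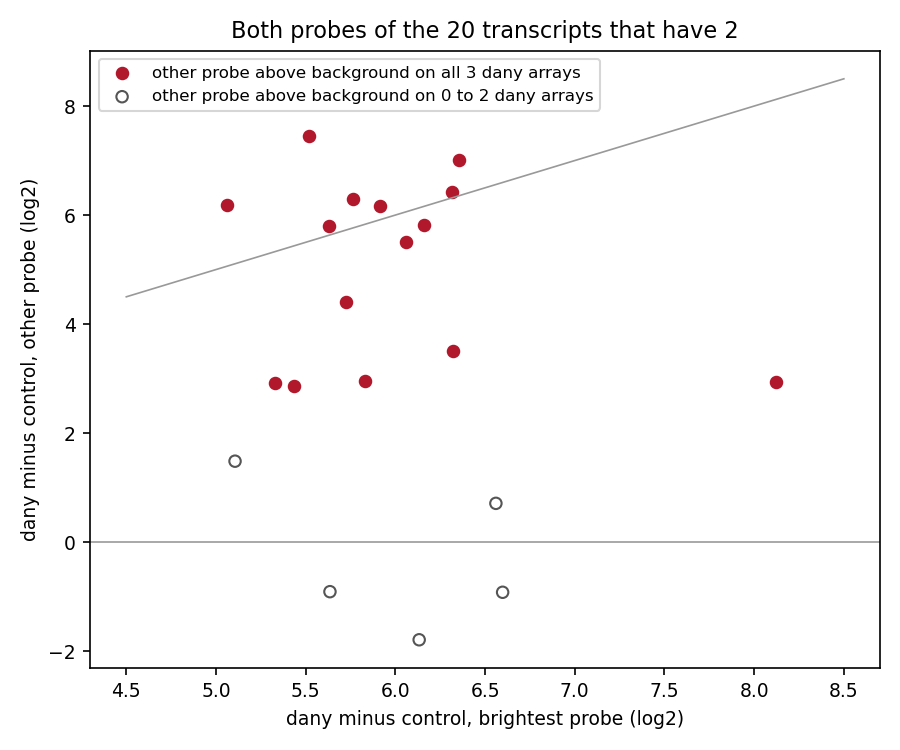
Mean level in dany minus control (log2) of the other probe (vertical) against the brightest probe (horizontal) for the 20 transcripts with a second probe; the sloping line marks equal values. The 15 filled points, above background on all 3 dany arrays, lie between 2.86 and 7.46, and the 5 open points lie below 2.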

How the data were processed

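Total RNA of pooled testes was amplified, labelled with Cy3 and hybridised to 13 single-colour Agilent arrays. Per the file headers, the signals come from Feature Extraction 10.7.3.1 by Agilent. The deposited spot values are linear intensity, with the background already subtracted in the processed signal used here. The deposited series table has log2 values whose background correction is not given in the sources used here, and it was used only to repeat the choice and the fits. Of 45019 spots on an array, 1417 were controls. Spots of a probe were averaged on the log2 scale without outlier spots, and the brightest of a target's probes was used. A probe counted as above background where at least 0.5 of its spots were flagged so, and no spot was saturated. Targets detected throughout at least 1 genotype (19753, which by the rule includes the 87) were fitted with limma 3.58.1 (R 4.3.3) with 1 mean per genotype, 8 residual and 2.49 prior degrees of freedom, and Benjamini-Hochberg adjustment over all targets. A target was called at an adjusted p-value under 0.05 together with a 2-fold difference. The scripts were tested on simulated data. Precision is set by how few arrays there are: the median SE was 0.306 for dany and 0.347 for each other mutant against control. The labels call the replicates biological.

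The transcripts, the 14 marker lists (267 genes, 11 matched and 9 tested, none among the 87) and the tests were chosen with earlier results of these data known. Named transcripts are the 6 largest measured differences, the 3 highest signals and the 3 largest and 3 smallest SDs in dany, and the 3 nearest each limit on both sides. Others are said to have been chosen after their values were seen or stand for a count. The arrays lay on 4 slides. Mean signal was not among the columns used, so normexp ran on the median signal. Replicate numbers were not taken as a pairing. The correlation of deviations from group means ran from -0.046 to 0.746 between same-numbered arrays (21 pairs, median 0.481). On different slides these pairs had a median of 0.034 and a highest value of 0.678. Arrays of the same slide had a range of -0.046 to 0.746 and a median of 0.560 (16 pairs), and slide as a block was an alternative.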

Additional observations from a re-analysis of the deposited data

Results flagged for a closer look

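Of 40 sets of 4 control values examined for an array far from the others by Dixon's test at the 95% level, 2 stood out, and chance gives about 1 in 20. FBtr0075392 read -3.99 on control 1 against -4.42, -4.46 and -4.40 on the others, with 2.06, 1.98 and 1.93 in dany. FBtr0078433, of the chosen transcripts the closest to the limit of 5, read -4.84 on control 2 against -4.58, -4.61 and -4.62, with -0.20, 0.58 and 0.72 in dany. The cause was not tested.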

How the results depend on the processing

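No named transcript changed sign, in dany minus control or between the mutants where it was called, under the alternatives run, but the balance of calls over all targets turned with the scaling. The number of transcripts chosen was 87. It was 48 with median scaling (44 of them among the 87), 133 with spike-in scaling (76), 25 with normexp background correction (15), 90 with quantile normalization (67) and 70 with the deposited series table (41). It was 173 with a difference in dany of at least 4 and 34 with at least 6, and 45 with a limit of 0.5 in the other mutants. Leaving out 1 array gave 73 to 92, and fewest of the 87 were shared without control 1 (66). A linear mean of spots, added after the data were seen, kept 84. The median of dany minus control over the 87 was 5.64, and 5.00 with median scaling, 6.40 with spike-in scaling, 4.08 with normexp, 4.78 with the deposited table, 5.55 with the mean over all probes, and 5.63 to 5.76 without 1 array. Scaling moved the median of all targets in dany from -0.04 to -0.67 (median), 0.73 (spike-in) and -0.32 (normexp).

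Over all targets, dany had 5213 higher and 3505 lower calls, against 3719 and 7168 with median scaling, 5652 and 820 with spike-in scaling and 3243 and 3735 with normexp. The sa counts of 5199 and 2994 were 3423 and 3850 with median scaling, 1825 and 1503 with spike-in scaling and 3067 and 2860 with normexp. The aly counts of 7949 and 3997 were 3473 and 3373 with spike-in scaling. Sa against the tMAC mutants had 3516 and 4070, against 3050 and 6478 with median scaling and 2446 and 634 with spike-in scaling. Aly against topi had 1479 and 1455, against 443 and 706 with spike-in scaling. Without 1 array, 2549 to 4542 were lower in sa than in the tMAC mutants, and 923 to 2103 lower in aly than in topi.

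Among the 87, sa against the tMAC mutants (16 higher, 2 lower) gave 6 lower with median scaling, 10 higher and 0 lower with spike-in scaling, 4 higher and 0 lower with normexp, 4 lower with slide as a block (16 higher as before), and 15 to 21 higher and 2 to 5 lower without 1 array. The 5 came without aly 2. Aly against topi (1 higher, 3 lower) gave 0 higher and 1 lower with median scaling, spike-in scaling, normexp, the deposited table and no filter on dim probes, 0 higher with quantile normalization, 1 higher and 2 lower with slide as a block, and 0 to 3 higher and 1 to 5 lower without 1 array. With replicate number as a block, which was not taken as a pairing, 0 were higher and 3 lower in aly, and 18 higher in sa than in the tMAC mutants. The causes were not tested. Levels below background in control limit the size of the difference for 35 of the 87, and in part for 20 more. With 2 arrays per mutant, small differences between sa, aly and topi could not be resolved.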

Other observations

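Besides the FlyBase transcripts, 15 array targets with other kinds of name met the same limits. Their dany minus control ranged from 5.08 to 8.32 on the log2 scale, and in 11 no control array was above background. The only one matched to a gene was a target of CG43897, with levels of -7.35, -8.67, -8.43 and -8.03 in control and -2.48, -1.82 and -1.64 in dany. Its sa, aly and topi levels lay from -8.02 to -7.48, all below every dany value. No control array was above background for it, and dany was at least 16.6-fold higher.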
